A study of Arabidopsis thaliana with 11 samples.

Results

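The genes described here are 4 genes linked to abscisic acid and to drying out, among 19525 features measured: AT5G08350, which encodes a GRAM domain protein, AT3G15670, which encodes a late embryogenesis abundant (LEA) protein, the dehydrin gene COR47 (AT1G20440) and COR15A (AT2G42540), a cold-regulated gene. Each gene was read from the only probe set that the table of the array platform pairs with it, and none of the 4 probe sets carries the suffix that marks sequence shared between genes. The genes were chosen with earlier results of the comparison below already known, so their differences between the groups are a description and were given no test.

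Labeled RNA was measured on 11 ATH1 arrays, 6 of root cells transfected with 35S::GR::bZIP1 (4tu-bZIP1) and 5 of root cells transfected with the empty vector pJD385_35S::GR (4tu-EV). All cells were protoplasts, which are cells freed of their wall, of wild-type Columbia Col-0 roots, and the titles call the arrays of a group biological replicates. Nitrogen was given to both groups as KNO3 and NH4NO3, each at 20 mM, over 1 h and 40 min by the sample labels. Both were also treated with cycloheximide, a blocker of translation (35 µM, 20 min), and with dexamethasone (10 µM, 5 h), and were pulsed over 20 min with 4-thiouracil (4tU) at 1.5 mM and uracil at 0.2 mM. GR is a steroid receptor domain that holds the fused transcription factor (TF) in the cytoplasm until dexamethasone is given, 35S is a viral promoter active in most plant cells, and 4tU is built into RNA made during the pulse, so that new transcripts can be pulled down. The empty vector makes GR without a TF from another plasmid backbone. After the pulse, transfected cells were picked by their red fluorescence (RFP) in a cell sorter, by the study's methods. The TF was thus made from 35S, not from its own promoter, in isolated cells after transient transfection, which limits 4tu-bZIP1 as a model of the intact root, and its level was not analysed here.

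Abscisic acid is the plant hormone of drought, salt and seed maturation. Its receptors of the PYR/PYL family block a clade of protein phosphatases, which frees SnRK2 kinases to activate the ABF factors, themselves bZIP proteins that bind promoter elements with an ACGT core. The LEA proteins made at the end of this chain are mostly disordered and very soluble, and they protect membranes and enzymes when cells lose water. bZIP1 belongs to another group of the bZIP family, with roles in the response to low sugar and to nitrogen, and also binds sites with an ACGT core.

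The 4 genes showed 4 different patterns. AT5G08350 was far higher in 4tu-bZIP1, AT3G15670 was moderately lower, COR47 was read at a high level that differed little between the groups, and COR15A stayed near the lowest value of the table on every array. For 2 of the 4 genes no array of one group fell within the range of the other, which was so for 0.855% of all features (0.405% with 4tu-bZIP1 above and 0.451% with 4tu-bZIP1 below). Of the 4 genes 2 had a higher mean log2 value in 4tu-bZIP1 and 2 a lower one, where 51.6% of all features were higher and 48.4% lower. Nothing is read from these shares, since the genes were chosen with results of this comparison known. The levels are intensities on the linear scale after the authors' normalization, in arbitrary units, and log2 differences are 4tu-bZIP1 minus 4tu-EV. In RNA pulled down from a pool of sorted cells, fewer cells that make a transcript and less new RNA per cell cannot be told apart.

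**Figure D1:**
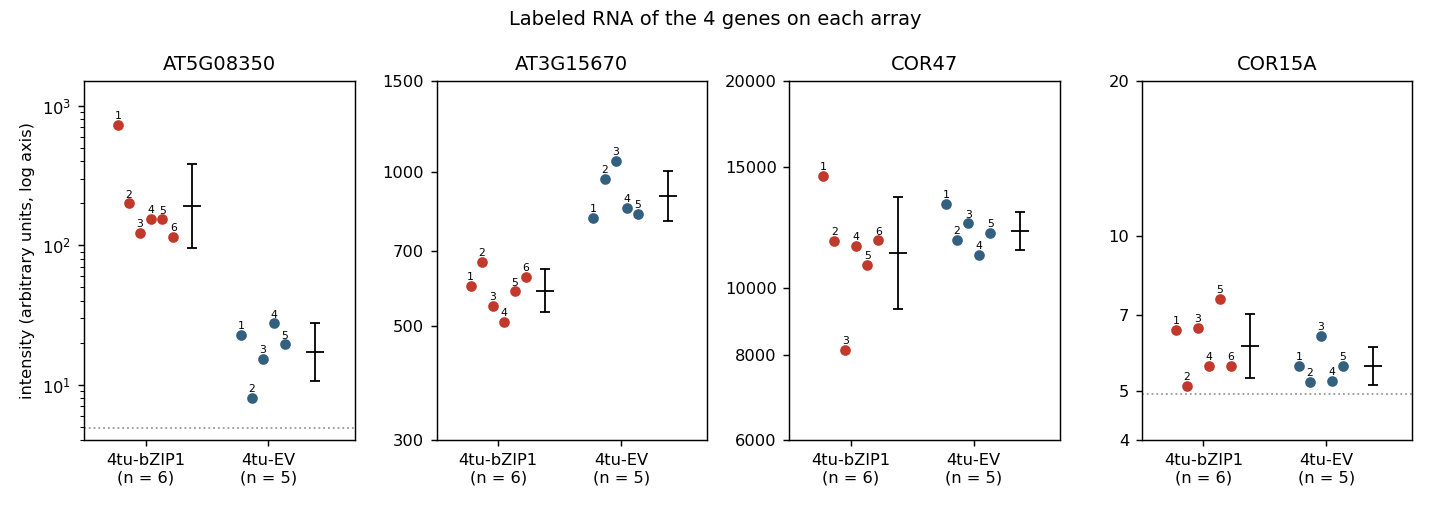
Intensity (log axis, arbitrary units) of AT5G08350, AT3G15670, COR47 and COR15A on each array of 4tu-bZIP1 (red, n = 6) and 4tu-EV (blue, n = 5). Numbers are replicates, the black mark is the mean of log2 values with its SD, and the dotted line, drawn for AT5G08350 and COR15A, is the lowest intensity of the table, 4.92. The groups lie apart for AT5G08350 (115 to 731 against 8.04 to 27.6) and AT3G15670 (509.9 to 668 against 811 to 1051) and overlap for the other two.

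AT5G08350 encodes a member of a small plant family with a GRAM domain, a fold that binds lipids or proteins at membranes, and the family includes genes annotated as responsive to abscisic acid. Its intensity was 731, 199.6, 122, 155, 153 and 115 in 4tu-bZIP1 replicates 1 to 6, against 22.8, 8.04, 15.4, 27.6 and 19.5 in 4tu-EV replicates 1 to 5. Every array of 4tu-bZIP1 was above every array of 4tu-EV, and the lowest array of 4tu-bZIP1 was 4.18 times the highest of 4tu-EV. The means were 246 ± 240 (SD, n = 6) and 18.7 ± 7.44 (SD, n = 5), and the SD of 4tu-bZIP1 came largely from replicate 1. The log2 difference was 3.47 (standard error 0.51), or 11.1-fold. It ranked 1 of all 19525 features, as a description, since the gene was chosen with results of this comparison known.

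The size of this difference moved with 4tu-bZIP1 replicate 1 and with values near the bottom of the scale. Its sign was not tested, since the gene was chosen with results of this comparison known. Replicate 1 of 4tu-bZIP1, at 731, was far above the next highest array of its group, at 199.6, and it is also the array that stood apart from the rest over all genes. Without it the mean of 4tu-bZIP1 was 149 ± 33.5 (SD, n = 5), and the log2 difference was 3.08 (standard error 0.33), or 8.47-fold. At the other end, 2 arrays of 4tu-EV read under 16, near the bottom of the scale, so the fold is not exact. Raising all values under 16 to 16 gave a log2 difference of 3.26, which ranked 1 of the 11775 features that still varied. The spread of AT5G08350 within groups was an SD of 0.87 on the log2 scale. It was larger than that of 65.9% of the 3478 other features within 1 log2 unit of its mean level. That level, over all 11 arrays, lies between the log2 means of 4tu-bZIP1, 7.58, and 4tu-EV, 4.11, so the compared features match neither group.

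AT3G15670 encodes a LEA protein of the same subgroup as COR15A, one built from repeats that can fold into a helix on drying. Its intensity was 598, 668, 548, 509.9, 585 and 625 in 4tu-bZIP1 replicates 1 to 6, against 811, 968, 1051, 849.8 and 827 in 4tu-EV replicates 1 to 5. Every array of 4tu-bZIP1 was below every array of 4tu-EV. The means were 589 ± 55.9 (SD, n = 6) and 901 ± 104 (SD, n = 5). The log2 difference was -0.61 (standard error 0.089), so that the level in 4tu-bZIP1 was 0.654 times that in 4tu-EV.

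This difference was small in size and steady across arrays. Of all features 11.3% differed by more in either direction, but AT3G15670 had a spread within groups of only 0.15 on the log2 scale, and none of the 1182 other features within 1 log2 unit of its mean level had a smaller one. That is a description, since the gene was chosen with this comparison known, and a small spread makes a small difference stand out. Each array of 4tu-bZIP1 lay below the mean of 4tu-EV, by a log2 difference of -0.81 to -0.42. Replicate 1 of 4tu-bZIP1, far from its group in AT5G08350, lay inside its group here, and without it the log2 difference of AT3G15670 was -0.62 (standard error 0.097).

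**Figure D2:**
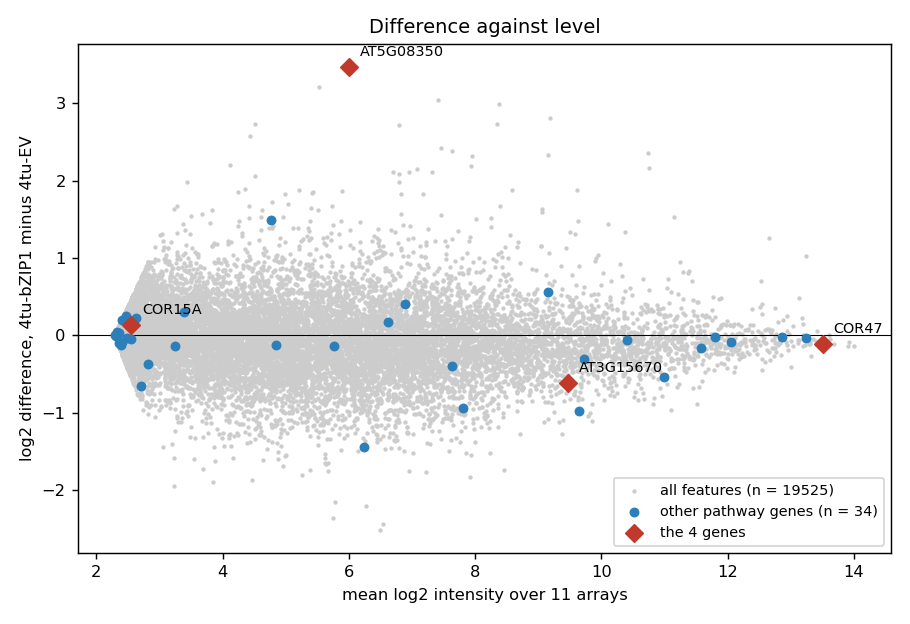
Log2 difference (4tu-bZIP1 minus 4tu-EV) against the mean log2 intensity over 11 arrays for all 19525 features (grey), the 34 other listed genes tested (blue) and the 4 genes (red diamonds). AT5G08350 is the highest point of the plot at 3.47, AT3G15670 lies at -0.61 inside the cloud, and COR47 and COR15A lie near 0 at opposite ends of the range of levels.

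COR47 encodes an acidic dehydrin, a class of LEA proteins with lysine-rich segments, which is made in cold and drought and in response to abscisic acid. Its intensity was 14567, 11696, 8129, 11524, 10809 and 11725 in 4tu-bZIP1 replicates 1 to 6, against 13252, 11745, 12412, 11165 and 12033 in 4tu-EV replicates 1 to 5. The groups overlapped, with the highest and the lowest array both in 4tu-bZIP1. The means were 11408 ± 2063 (SD, n = 6) and 12121 ± 779 (SD, n = 5), and the log2 difference was -0.11 (standard error 0.12). COR47 RNA in the pulled-down fraction was read at a high intensity on all arrays, those with the empty vector included. Every array here is of pulled-down RNA from cells given 4tU, so unlabeled RNA carried through the pull-down was not measured.

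The spread of COR47 was wider in 4tu-bZIP1, with an SD of 0.27 on the log2 scale, than in 4tu-EV, with 0.092. It rested on replicate 1, the highest array, and replicate 3, the lowest. Leaving out replicate 3 gave a log2 difference of -0.012, and leaving out replicate 1 gave -0.18 (standard error 0.11), the extremes over all fits without 1 array. Over both groups the SD was 0.21, and 76.5% of the 85 other features within 1 log2 unit of its mean level had a smaller one.

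COR15A encodes a small LEA protein that is carried into the chloroplast and protects its membranes in freezing, and it is among the genes most used as a marker of the cold and drought response. Its intensity was 6.55, 5.11, 6.62, 5.59, 7.54 and 5.59 in 4tu-bZIP1 replicates 1 to 6, against 5.59, 5.19, 6.39, 5.21 and 5.59 in 4tu-EV replicates 1 to 5. All 11 values were under 16 and close to 4.92, the lowest value that any probe set has, and 4 arrays shared the same value of 5.59. The log2 difference of 0.13 (standard error 0.10) is therefore a difference between values near the bottom of the scale, from which no change in labeled COR15A RNA can be read in either direction. No signal above the bottom of the scale was read for COR15A in either group, and a low level of new RNA may lie below what this probe set can show.

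**Figure D3:**
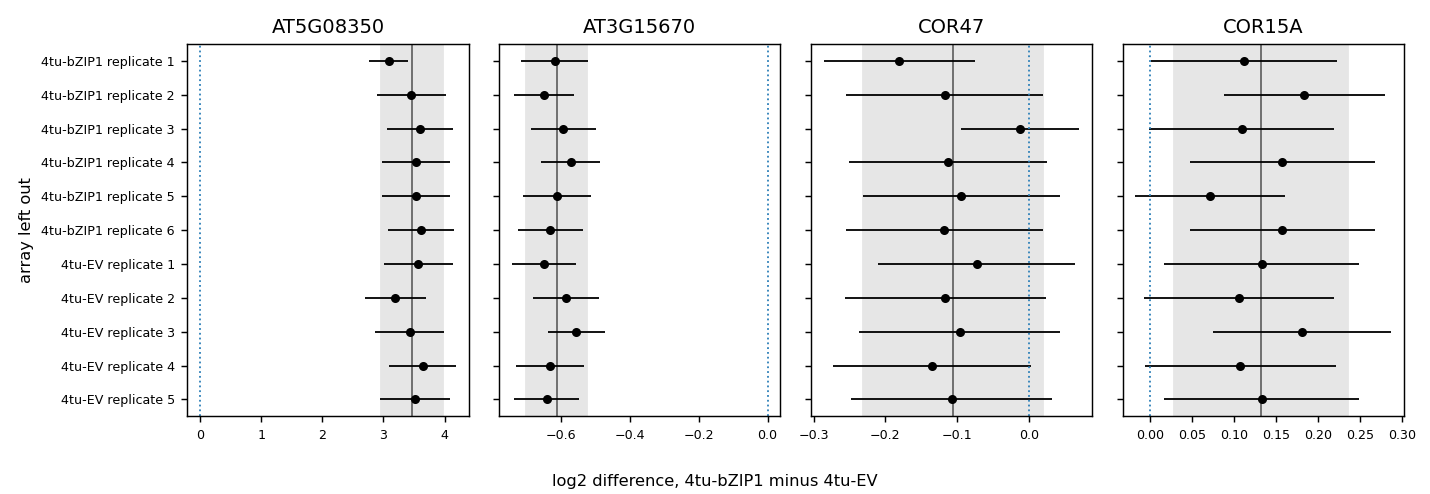
Log2 difference (4tu-bZIP1 minus 4tu-EV) of each of the 4 genes with 1 array left out, named at the left, with limma's standard error as bars. The grey line and band are the value on all 11 arrays and its standard error, and the dotted line is 0. AT5G08350 moved most when 4tu-bZIP1 replicate 1 was left out, to 3.08, and AT3G15670 stayed between -0.65 and -0.56.

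Of the 11 arrays that of 4tu-bZIP1 replicate 1 stood apart most. Its median correlation with the other arrays was 0.878, where these had 0.943 to 0.965, and 6643 of its probe sets reached an intensity of 32, against 7228 to 7594 on the others. Limma's array weights, lower for arrays that deviate more, were 0.082 for this array, 0.37 for 4tu-EV replicate 5 and 0.59 to 5.6 for the rest. On all arrays 26.1 to 29.8% of the probe sets other than controls were at the lowest value. The test by limma (Benjamini-Hochberg adjusted p under 0.1, as the methods use an FDR cutoff of 10%) called 32 features higher and 4 lower in 4tu-bZIP1, or 0.164% and 0.0205% of all. The root origin of the cells could hardly be checked: of 26 markers of root, leaf and seed cell types 2 could be tested and 1 more, CO2 of the cortex, did not vary between arrays. The epidermal factor gene WER (MYB66) was read at 6.98 to 146 in 4tu-bZIP1 and 6.08 to 66.0 in 4tu-EV, and the root hair expansin gene EXPA7 at 4.93 to 55.0 in 4tu-bZIP1 and 4.93 to 5.18 in 4tu-EV, with its highest value in 4tu-bZIP1 replicate 1. Whether the mix of cell types moved with the values of the 4 genes was not tested.

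The other genes of the pathway were read from lists that run from the hormone to its targets. Of 160 listed genes 40 have a name on the platform, 2 of them did not vary between arrays, and 38 were tested, among them the 4 genes above. The genes of abscisic acid synthesis and breakdown (15 listed), of its receptors (14), of the phosphatases (9), of the SnRK2 kinases (10) and of the mixed list of other response genes (24), which holds RD29A, carry no name in the tables at hand and were not analysed here. None of the 34 genes tested besides these 4 rose or fell at the threshold by limma, against 0.184% of all features called in either direction. The smallest adjusted p among them was 0.85 from limma, and 4 genes had an unadjusted p under 0.05, each with a lower mean in 4tu-bZIP1, where 3.23% of all features had such a p with a lower mean and 1.51% with a higher one. LEA18, among these 4, was under 16 on all 11 arrays, so its difference gives no direction. Array weights in limma, a robust prior with a trend, and the methods' one-way test without moderation called none of the 34 either, and each gave 4 at an unadjusted p under 0.05. The methods also take genes from a Rank Product analysis, which was not run here.

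**Figure D4:**
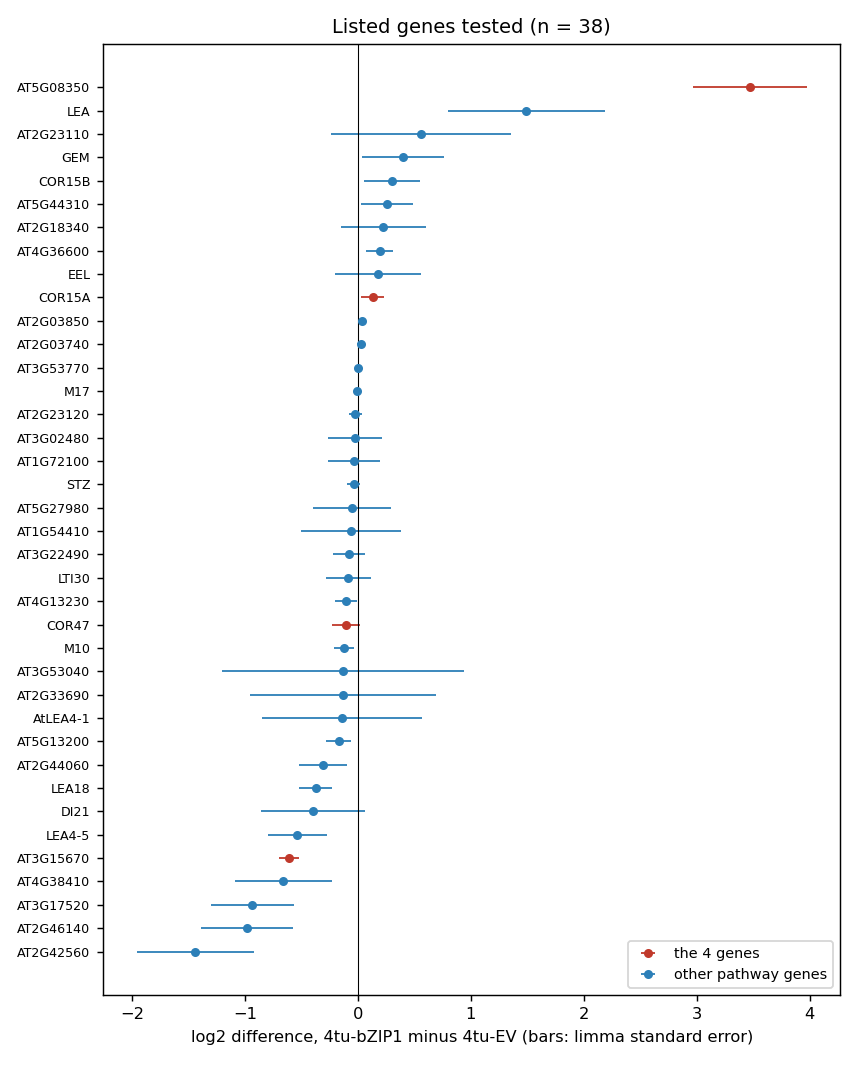
Log2 difference (4tu-bZIP1 minus 4tu-EV) with limma's standard error for the 38 listed genes tested, the 4 genes in red and the 34 others in blue. LEA is the dehydrin gene AT2G21490. Among the 34 others the values run from -1.44 (AT2G42560) to 1.49 (LEA), and the long bars belong to genes whose arrays differ widely within a group.

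Regulators upstream were nearly all out of reach. Of the 19 TF genes linked to abscisic acid only EEL (AT2G41070), which encodes a bZIP factor of maturing seeds, could be read. It had 59.6 to 218 in 4tu-bZIP1 and 64.5 to 151 in 4tu-EV, and a log2 difference of 0.18 (standard error 0.38, adjusted p = 0.92 by the limma fit). The CBF and DREB factors drive COR15A and COR47 in the cold. Of 9 genes listed as CBF and DREB factors and cold regulators, only STZ (AT1G27730, also ZAT10), which encodes a zinc finger repressor, was tested. STZ is not a CBF or DREB factor, so those factors were not read. The mean of STZ in 4tu-bZIP1 was 9552 ± 563 (SD, n = 6), against 9809 ± 642 (SD, n = 5) in 4tu-EV, and its log2 difference was -0.038 (standard error 0.055, adjusted p = 0.87 from limma).

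The relatives of AT5G08350 that could be read were not called. From the GRAM family, with 9 genes listed, 3 were tested. AT5G13200, a relative also annotated with abscisic acid, had 2327, 3148, 2662, 2779, 3313 and 3216 in 4tu-bZIP1 replicates 1 to 6, against 3324, 3339, 3783, 3148 and 2705 in 4tu-EV replicates 1 to 5. The groups overlapped, and the log2 difference was -0.17 (standard error 0.11), with an adjusted p = 0.85 from limma. GEM (AT2G22475), which acts in the patterning of root hair cells, had 76.6 to 208 in 4tu-bZIP1, against 44.8 to 159.7 in 4tu-EV, with a log2 difference of 0.40 (standard error 0.36, adjusted p = 0.85 by the limma fit). The closest relatives, AT5G23350, AT5G23360 and AT5G23370, were not analysed here.

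LEA and dehydrin genes gave the fullest list, with 33 of 51 genes tested, AT3G15670, COR47 and COR15A included. Of the 30 others none passed the test. The mean of log2 values was higher for 8 and lower for 22 of them, where 48.4% of all features had a lower one. Their median log2 difference was -0.070, against 0.0014 over all features. Of the 30, 12 were under 16 on all arrays, as COR15A was and as were 39.7% of all features. These 12 are in the counts above, though their signs give no direction. COR15B, which lies next to COR15A and encodes a close copy of its protein, was read at 25.1, 9.32, 9.31, 9.31, 9.31 and 12.3 in 4tu-bZIP1 replicates 1 to 6, against 9.31, 9.31, 8.97, 9.42 and 9.65 in 4tu-EV replicates 1 to 5. Only replicate 1 of 4tu-bZIP1, the array that stood apart, was over 16, and the log2 difference of COR15B was 0.30 (standard error 0.25, adjusted p = 0.85 from limma). ERD10 and ERD14, the dehydrins most like COR47, and LEA7 (AT1G52690), the gene most like AT3G15670, were not analysed here.

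Among LEA genes with a mean log2 value of at least 5, those with a lower mean in 4tu-bZIP1 were in the majority, as they were over all features of that level. Of 12 such genes besides AT3G15670 and COR47, 11 had a lower mean, where 62.4% of all 7000 features of that level did, and the median log2 difference was -0.22, against -0.12 over those features. AT2G42560, of the same subgroup as AT3G15670, had 15.1, 104, 57.7, 88.2, 23.2 and 66.1 in 4tu-bZIP1 replicates 1 to 6, against 133, 98.2, 174, 188 and 88.2 in 4tu-EV replicates 1 to 5. The groups overlapped, with 4 arrays of 4tu-bZIP1 below all of 4tu-EV, and the log2 difference was -1.44 (standard error 0.52, adjusted p = 0.85 from limma). AT3G17520, of this subgroup too, had 125, 227, 251, 213, 189 and 74.4 in 4tu-bZIP1 replicates 1 to 6, against 203, 227, 321, 520.3 and 422 in 4tu-EV replicates 1 to 5. The groups overlapped again, with a log2 difference of -0.93 (standard error 0.37, adjusted p = 0.85 from limma). AT2G46140, of another LEA subgroup and picked after its values were seen, had 373 to 1092 in 4tu-bZIP1, against 748 to 2800 in 4tu-EV, and its log2 difference was -0.98 (standard error 0.41, adjusted p = 0.85 by the limma fit). The differences of AT2G42560 and AT3G17520 were larger than that of AT3G15670, and so were their spreads. AT3G15670 was chosen with this comparison known, so the contrast of spreads is a description. On the log2 scale the SD was 1.11 in 4tu-bZIP1 and 0.48 in 4tu-EV for AT2G42560, 0.67 in 4tu-bZIP1 and 0.58 in 4tu-EV for AT3G17520, and 0.14 in 4tu-bZIP1 and 0.16 in 4tu-EV for AT3G15670.

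Other LEA genes, chosen here by their level and after their values were seen, were read at 16 or more on every array, as COR47 and AT3G15670 were. LTI30, a dehydrin made in the cold, was read at 2467 to 5701 in 4tu-bZIP1, against 3853 to 5646 in 4tu-EV, and its log2 difference was -0.083 (standard error 0.20). AT2G23120, which encodes a short LEA protein, had the smallest spread of these genes, an SD of 0.095 on the log2 scale, and a log2 difference of -0.023 (standard error 0.058). AT3G02480, of the subgroup of COR15A and AT3G15670, had a log2 difference of -0.025 (standard error 0.24). AT2G23110, next to AT2G23120, was the only one of these 13 genes with a higher mean in 4tu-bZIP1, a log2 difference of 0.56 (standard error 0.80), which rested on an intensity of 4546 in 4tu-bZIP1 replicate 3 and 1876 in replicate 4, against 316 to 882 in 4tu-EV.

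**Figure D5:**
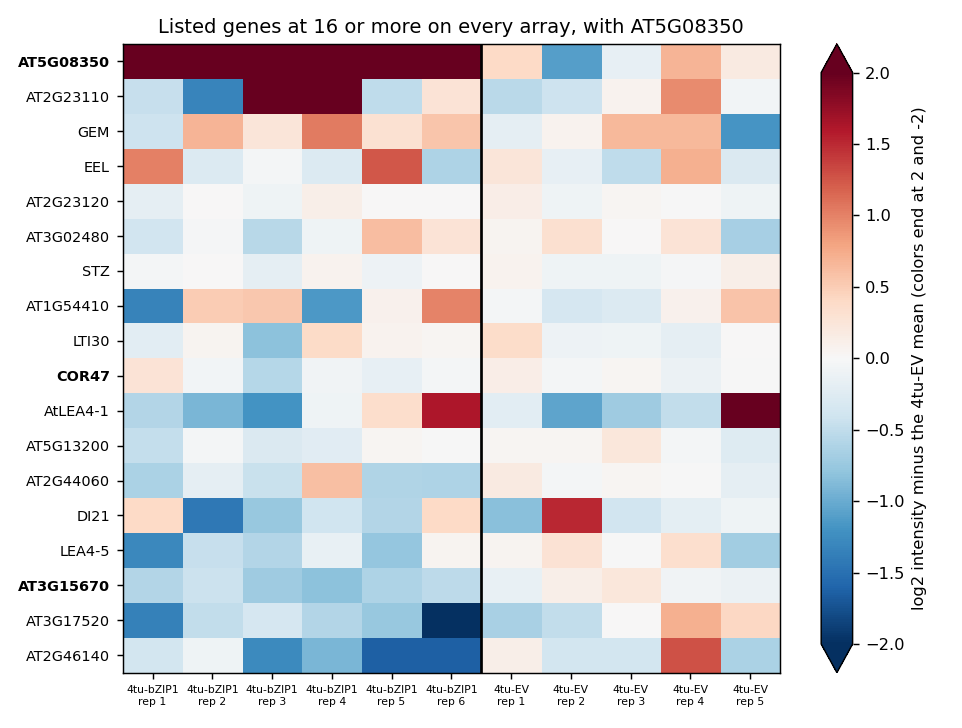
Log2 intensity minus the mean of 4tu-EV on each array, for the listed genes read at 16 or more on all arrays and for AT5G08350, ordered by their mean in 4tu-bZIP1. Names of the 4 genes described are bold (COR15A is under 16 and not drawn), red is higher and blue lower than the 4tu-EV mean, and colors end at 2 and -2. AT5G08350 is above 2 in all 6 arrays of 4tu-bZIP1 and AT3G15670 is blue in all 6, while COR47 stays between -0.57 and 0.27.

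The patterns within groups most like those of the 4 genes came from genes outside the lists. Likeness was measured as Pearson's r over the 11 arrays after the mean of each group was subtracted, among the other named features with a mean log2 value of at least 5, between 3857 and 3858 of them. The highest of so many values are high in any case, and no test was made. Only 16 listed genes besides the 4 were among the features compared, so nothing is read from the kind of gene. For AT5G08350 these were AT1G75230, which encodes a DNA glycosylase (r = 0.94 and rho = 0.89 by Spearman, and r = 0.86 without 4tu-bZIP1 replicate 1), and EXO70H1, a subunit of the exocyst (r = 0.91, and 0.77 without that array). Neither passed the test between the groups, with log2 differences of 0.0065 for AT1G75230 and 1.83 for EXO70H1 (adjusted p = 1.0 and 0.85 from limma).

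For AT3G15670 the nearest patterns were those of AT3G63460, which encodes a protein of transport vesicles (r = 0.89), and the peroxidase gene PRX52 (r = 0.80). Their log2 differences were 0.69 (standard error 0.28) for AT3G63460 and 0.24 (standard error 0.16) for PRX52, opposite in sign to that of AT3G15670, and neither passed the test (adjusted p = 0.85 for both from limma). For COR47 they were AT1G15940 (r = 0.93, and rho = 0.62 by Spearman) and AT5G49400 (r = 0.92), with log2 differences of -0.58 (standard error 0.42) and 0.060 (standard error 0.24). For COR15A they were SPX2 and GSTL3 (r = 0.80 for both), of which SPX2, a sensor of phosphate status, fell with a log2 difference of -0.72 (standard error 0.098, adjusted p = 0.030 by the limma fit), though the values of COR15A spanned only 5.11 to 7.54.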

How the data were processed

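RNA labeled with 4tU was pulled down, amplified and hybridized to ATH1 arrays, 6 of 4tu-bZIP1 and 5 of 4tu-EV, grouped by the sample titles. The deposited table holds an intensity per probe set and array on the linear scale, which the authors made with GCRMA (background correction by GC content, normalization between arrays, 1 value per probe set). GCRMA pulls dim probe sets toward a common lowest value, so differences there are compressed and 1 array can decide them. The number of arrays limits the precision.

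Of 22810 probe sets, 64 controls and 2307 with the same value on all arrays were left out, as were 448 with several genes and 330 unnamed ones whose suffix marks shared sequence. Names came from the platform table and the gene lists of the paper. Where a gene had several probe sets, that with the highest mean was kept. This gave 19525 features, of which 11885 were named. Log2 was taken with no pseudocount, and 4tu-bZIP1 minus 4tu-EV was fitted with limma 3.58.1 in R 4.3.3 on all features, with p adjusted by Benjamini-Hochberg over all of them at a threshold of 0.1. The fit was tested on simulated data. Tables were made in Python 3.11.15. No count test applies to array intensities.

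The 4 genes and the lists were chosen with earlier results of these data known. Named besides the 4 are their nearest relatives, in each list the genes past the threshold or the 2 with the smallest p, and for each of the 4 the 2 named features with the most similar pattern. AT2G46140, LEA18 and the LEA genes named for their level were picked after their values were seen. The alternatives were other forms of the test, a stricter threshold, 2 scalings, a filter and a floor for dim values, other sets of features, the replicate number as a block and each array left out. Descriptions of promoters and proteins that had been planned were not made, as no sequences were used here. The level of bZIP1 itself and the filters of the methods for protoplasting and cycloheximide effects were not analysed here. Same-numbered arrays of the groups are not stated to share a culture or a day.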

Additional observations from a re-analysis of the deposited data

Results flagged for a closer look

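An array far from the rest of its group was looked for in 11 named genes, the 4 described and 7 of their pathway, in each group on the log2 scale, which made 22 groups of arrays. For independent, normally spread values chance alone puts about 1 in 20 groups past the limit used. Past this limit were 2, both through the highest array of 4tu-bZIP1, replicate 1, the array that stood apart over all genes. As they share that array, and COR15B has tied values near the bottom of the scale, their number cannot be set against that rate. For AT5G08350 this array had an intensity of 731 and the next highest of its group 199.6. For COR15B it had 25.1 and the next highest 12.3, near the bottom of the scale. The part of that array's quality in these values was not tested.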

How the results depend on the processing

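The log2 differences of AT5G08350, AT3G15670, COR47 and COR15A moved by less than the SD between replicates in each alternative that could move them. These were array weights, both scalings, a floor of 16 (which leaves no value for COR15A) and replicates 1 to 5 alone. Using all probe sets could not move them, as each gene has 1 probe set. The replicate block gave the same values as replicates 1 to 5 without it. For COR47 and COR15A that SD, 0.21 and 0.17, is larger than the difference itself, so staying within it says little. Over all these alternatives the range was 3.26 to 3.62 for AT5G08350, -0.67 to -0.56 for AT3G15670 and -0.15 to -0.056 for COR47. For COR15A, whose values are all under 16 and give no direction, it was 0.0059 (array weights) to 0.18. In fits without 1 array the ranges of the 4 genes, in this order, were 3.08 to 3.64, -0.65 to -0.56, -0.18 to -0.012 and 0.072 to 0.18. None of the 34 other listed genes was called in any alternative, and with so few calls over all features this says little. The number of features called did move. Array weights gave 66 higher and 27 lower, a threshold of 0.05 gave 21 higher, a minimum mean log2 value of 5 gave 1 lower and the floor of 16 gave 7 lower. Without 1 array 17 to 30 were higher and 1 to 11 lower, against 32 and 4 on all. Higher calls came to 17 without 4tu-bZIP1 replicate 5, to 18 without any one of its replicates 2, 4 and 6 and to 19 without replicate 2 of 4tu-EV, and lower ones to 2 without 4tu-bZIP1 replicate 1, 1 without its replicate 5 and 11 without 4tu-EV replicate 5. Limma with a replicate block (replicates 1 to 5) called 0 higher and 0 lower, with 321 and 633 at an unadjusted p under 0.05 (AT5G08350 at 3.62, AT3G15670 at -0.63), and the same arrays without the block, a setting added after seeing the data, gave 18 higher and 3 lower. Same-numbered arrays deviated together with r of 0.011 to 0.11 (1 of 5 pairs over 0.1), and arrays of other numbers with r of -0.13 to 0.13 (3 of 25 pairs). Such values cannot show whether same-numbered arrays share a culture or a day. The causes of these shifts were not tested. Dim signal, as in COR15A, sets the limit of what can be read.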
